A study of Mus musculus with 4 samples.

Results

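The cytochrome P450 genes described here are those on the array other than some Cyp2b genes and the sets of PPARA targets, bile acid enzymes and cholesterol synthesis. They were taken as every probe set annotated to 1 gene whose symbol is Cyp followed by a digit. The genes Cyp2b9, Cyp2b10, Cyp2b13, Cyp4a10, Cyp4a14, Cyp7a1, Cyp7b1, Cyp8b1, Cyp27a1 and Cyp51 were left out, while Cyp2b19 was not. This gave 37 of the 12422 probe sets that are no control, and 31 genes. A further 7 P450 probe sets match several genes each and were not named. Of the 31 genes, 22 had a probe set with a mean signal of at least 26.9, the median of all such means, and 4829 genes in all passed this filter. The 9 genes under it enter only the counts of promoter windows and those made with the filter dropped. Of these 9 genes only Cyp26a1 is given ratios.

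Liver RNA of female mice, killed in the fed state at the age of 8 months, was hybridised to 4 oligonucleotide arrays. The groups were wild type (wt) on a normal diet (ND, 11% of energy from fat), wild type on a high-fat diet (FD, 58% of energy from fat), HSL-null (ko) on ND and HSL-null on FD, each fed for 6 months. HSL-null mice carry a general knockout of hormone-sensitive lipase, encoded by Lipe, and no strain is named in the labels used here. RNA came from pools of 6 livers, except for HSL-null on FD with 4 livers, and each pool was read on 1 array. There was therefore no replicate and no test, and "higher" and "lower" describe these 4 pools. Values are signals on a linear scale, raised to a floor of 6.1 before a log2 ratio was taken, and a gene counted as different at 2-fold, a log2 ratio of 1 in size. How far 2 probe sets of a gene disagreed gave an SD of 0.298 per log2 ratio over 687 genes, called the probe set SD here. It leaves out error that probe sets share on an array and variation between animals. Signals of different probe sets are not compared with each other.

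Cytochromes P450 are heme enzymes that insert an oxygen atom into lipophilic substrates. Most hepatic members sit in the endoplasmic reticulum, where cytochrome P450 reductase supplies electrons. Families 1 to 3 handle drugs, toxins, steroids and eicosanoids, family 4 hydroxylates the far end of fatty acids and eicosanoids, and others make or break down steroids, vitamin D and retinoic acid. Hepatocytes near the central vein hold more of many of these enzymes than those near the portal tract. Several members differ between male and female mouse liver under the control of growth hormone.

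The promoters of Cyp2c38 and Cyp2c39 are shown because these are closely related neighbours whose signals differed by different amounts on FD. The probe set of Cyp2c38 has probes shared within a gene family, so its signal may include other Cyp2c transcripts. That of Cyp26a1 is shown because its signal was higher on FD in both genotypes. The promoter sequences are from RefSeq, build GRCm38.p6, and cover the 250 bases before each annotated gene start, on the gene's strand. RefSeq gives Cyp2c39 2 starts. Capitals mark matches, on either strand, to the letters TATAAA or to AGGTCA or AGTTCA or to TTCNNNGAA, with the bases at N left in lower case.
Cyp2c38, chr19:39463076-39463325, minus strand: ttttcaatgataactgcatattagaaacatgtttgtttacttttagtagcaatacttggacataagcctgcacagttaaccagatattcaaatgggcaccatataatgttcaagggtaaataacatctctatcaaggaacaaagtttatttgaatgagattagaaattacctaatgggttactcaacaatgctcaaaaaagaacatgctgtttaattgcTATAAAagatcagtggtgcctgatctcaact
Cyp2c39, start 1, chr19:39347096-39347345, plus strand: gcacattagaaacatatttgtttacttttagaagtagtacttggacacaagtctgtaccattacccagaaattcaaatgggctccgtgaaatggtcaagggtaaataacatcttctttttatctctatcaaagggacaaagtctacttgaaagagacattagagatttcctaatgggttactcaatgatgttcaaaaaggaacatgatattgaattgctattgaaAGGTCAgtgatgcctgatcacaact
Cyp2c39, start 2, chr19:39510572-39510821, plus strand: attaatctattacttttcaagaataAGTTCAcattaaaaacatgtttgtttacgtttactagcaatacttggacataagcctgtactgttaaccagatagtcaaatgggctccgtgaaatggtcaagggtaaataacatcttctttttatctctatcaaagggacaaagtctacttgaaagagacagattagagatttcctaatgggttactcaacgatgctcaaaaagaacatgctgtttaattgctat
Cyp26a1, chr19:37697558-37697807, plus strand: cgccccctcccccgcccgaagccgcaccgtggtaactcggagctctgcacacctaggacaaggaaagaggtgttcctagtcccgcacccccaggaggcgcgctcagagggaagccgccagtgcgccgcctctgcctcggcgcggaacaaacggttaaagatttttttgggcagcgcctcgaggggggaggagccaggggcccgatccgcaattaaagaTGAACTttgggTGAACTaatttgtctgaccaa

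The Cyp2c38 window held TATAAA, the core of a TATA box, from base -31 to -26 relative to the gene start. Aligned without end gaps, it was identical to the window of Cyp2c39 start 2 at 198 of 238 columns (83.2%) and to that of start 1 at 201 of 250 (80.4%). Neither Cyp2c39 window held these letters, but that of start 2 ends at the base aligned to -29 of Cyp2c38, inside the TATAAA. The RefSeq table runs on past the start, and there TATAAA begins at -3 of start 2. Start 1 had AGGTCA, a half-site for nuclear receptors, at -25 to -20, and start 2 had AGTTCA at -225 to -220. In Cyp26a1, AGTTCA stood 2 times on the opposite strand, 5 bases apart, from -32 to -16, the arrangement known as the retinoic acid response element of this gene. That direct repeat was present in 7 of all 32851 RefSeq windows of this length (0.021%). Of the 31 genes, 27 had a window in the table. These 27 genes had 30 windows. TATAAA was in 13 of the 30 (43.3%) and in 12.4% of all windows, and AGGTCA in 10 (33.3%) and 14.0%. AGTTCA was in 6 (20.0%) and 11.8%, and TTCNNNGAA, a STAT-type site, in 2 (6.67%) and 7.02%. Such matches describe letters in a window and are not evidence of binding.

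Of the 22 P450 genes kept, 19 stayed within 2-fold over all 4 arrays (86.4%). The share was 93.1% of all 4829 genes kept and 95.8% of the 2519 with a mean signal of at least 97.1, so the family was not more level than other genes. Cyp3a25 varied least, by 1.06-fold, followed by Cyp2d26 at 1.07-fold, Cyp4v3 at 1.08-fold and Cyp3a13 at 1.09-fold. Cyp2f2, Cyp17a1 and Cyp2c39 spanned 2.11-fold, 2.51-fold and 4.02-fold. The median span was 0.56 on the log2 scale, against 0.42 over the 4829 genes.

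**Figure D1:**
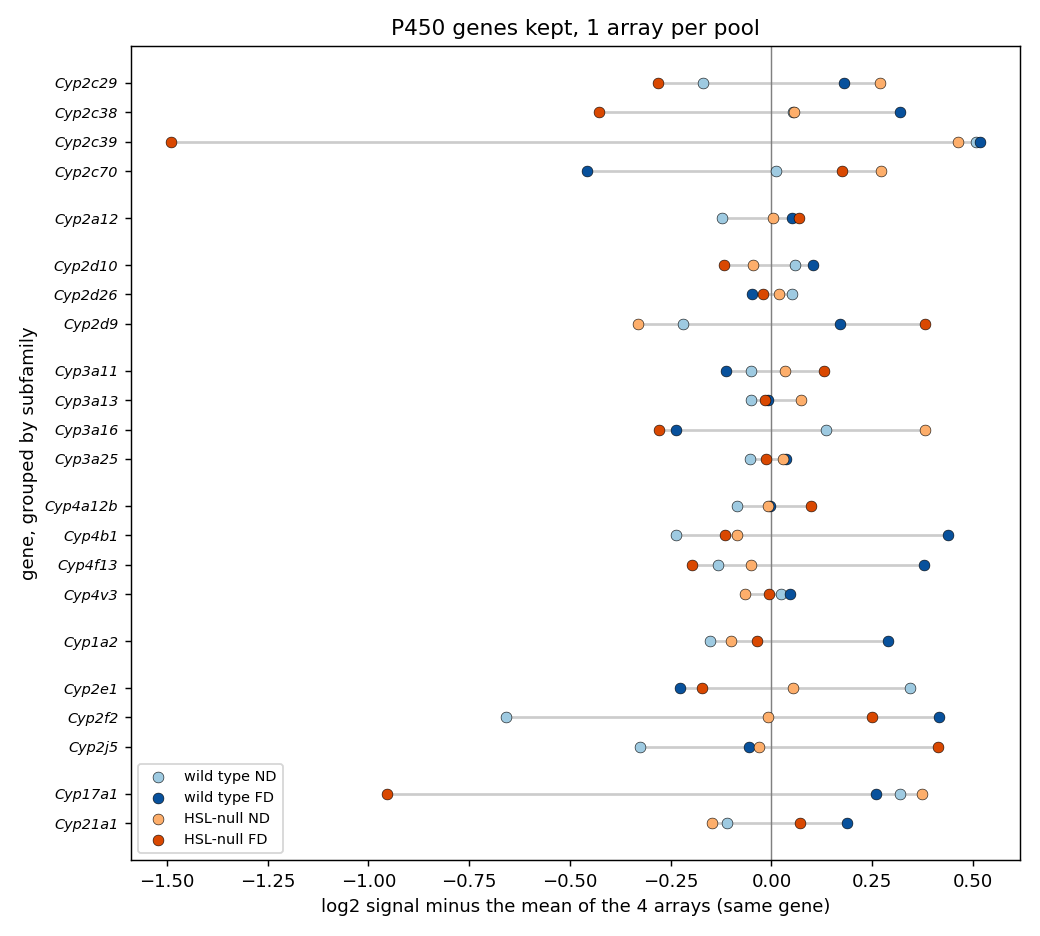
Log2 signal of each of the 22 kept P450 genes on each of the 4 arrays (x axis), as the difference from that gene's mean, with genes on the y axis grouped by subfamily and 1 point per array. Cyp2c39 and Cyp17a1 have the HSL-null FD point far to the left of the other 3 points, and Cyp2f2 has the wild-type ND point to the left.

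Between the genotypes, no P450 gene was 2-fold different on ND, and 2 were lower in HSL-null liver on FD. On ND, 0 of 22 genes were 2-fold different, against 1.57% of the 4829 genes. The member ratios of HSL-null to wild type ran from -0.29 for Cyp2e1 to 0.65 for Cyp2f2, with a median of 0.079 against -0.018 for all genes. Of the 22, 15 were above 0, beside 2282 of all 4829 genes. On FD, 2 of 22 genes were 2-fold or more lower and 0 were higher, against 0.953% lower and 1.86% higher of all genes. The 2 were Cyp2c39 and Cyp17a1, and the median of the 22 was -0.051 against 0.067 for all genes. Of the 22, 14 were below 0, against 41.5% of all genes. Among the 2519 genes with a mean signal of at least 97.1, where 19 of the 22 lie, the share 2-fold lower on FD was also 0.953%. Their median ratio was 0.011, lower than that of all genes, so the comparison of signs depends on the genes set beside the family. A count of 2 genes leaves the share for the family imprecise.

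**Figure D2:**
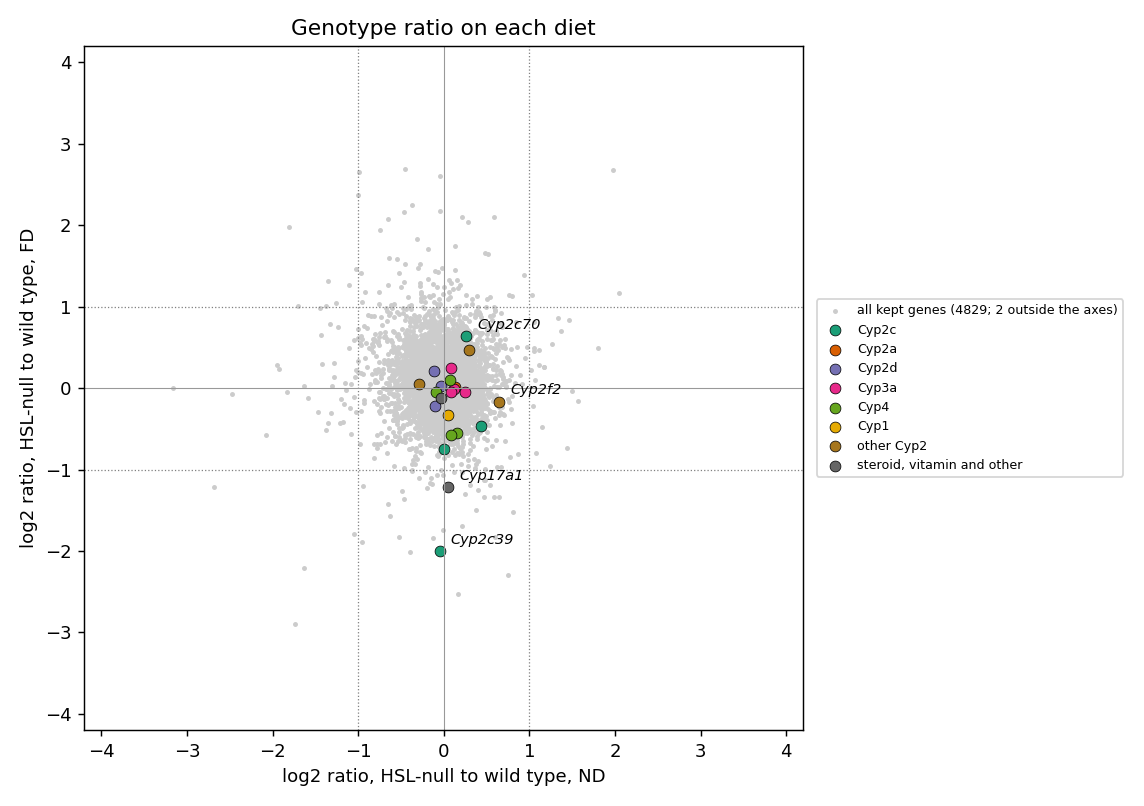
Genotype ratio, log2 of HSL-null over wild type, on ND (x axis) and on FD (y axis), with each of the 4829 kept genes as a grey point, P450 genes coloured by subfamily and dotted lines at 2-fold. The P450 genes lie within 2-fold on ND, and Cyp2c39 (-2.01) and Cyp17a1 (-1.21) lie below the line on FD.

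The Cyp2c enzymes hydroxylate and epoxidise drugs, arachidonic acid and retinoids, and all 4 genes measured belong to a cluster on chromosome 19. Cyp2c39, whose product can hydroxylate retinoic acid, had wild-type signals of 1971 on ND and 1985 on FD, and HSL-null signals of 1912 on ND and 494.3 on FD. The HSL-null FD pool stood apart, and the other 3 lay within 1.04-fold of each other. It was 4.02-fold lower than wild type on FD and 3.87-fold lower than HSL-null on ND, the 8th and the 5th lowest log2 ratio of the 4829 genes. These ratios share the HSL-null FD array and are not independent. On ND the genotype ratio was -0.044, and in wild type the diet ratio was 0.010.

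Cyp2c38, an arachidonic acid epoxygenase, was lowest in the same pool but by less. Wild-type liver gave 1944 on ND and 2334 on FD, and HSL-null liver 1946 and 1392. The genotype ratio was 0.0017 on ND and -0.75 on FD. Its probe set carries the suffix f, which marks probes shared within a gene family, so signal from other Cyp2c transcripts cannot be told apart. Cyp2c29, another epoxygenase, had 133.7 on ND and 170.2 on FD for wild type against 181.2 and 123.7 in HSL-null liver. It was 1.36-fold higher in HSL-null liver on ND and 1.38-fold lower on FD, with log2 ratios of 0.44 and -0.46, which lie 0.90 apart, beside a probe set SD of 0.421 for such a difference.

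Cyp2c70, which makes muricholic acids in the mouse, did not follow the other Cyp2c genes. Its signals were 1644 on ND and 1188 on FD for wild type against 1971 and 1843 in HSL-null liver, so the wild-type FD pool was the low one. Its genotype ratio was 0.26 on ND and 0.63 on FD. For the 4 Cyp2c genes, the ratio of FD to ND was below 0 in HSL-null liver, against 42.8% of all genes. It ran from -1.95 for Cyp2c39 to -0.097 for Cyp2c70, with a median of -0.52. The median for this ratio was 0.041 over all genes and 0.0009 over the 2519 with a mean signal of at least 97.1. In wild type the ratio was above 0 for 3 of 4, with a median of 0.14, beside 2124 of all 4829 genes above 0. Under median scaling, which moved the median ratio of all genes by -0.17 for genotype on FD, Cyp2c39 and Cyp17a1 were still the P450 genes 2-fold lower.

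**Figure D3:**
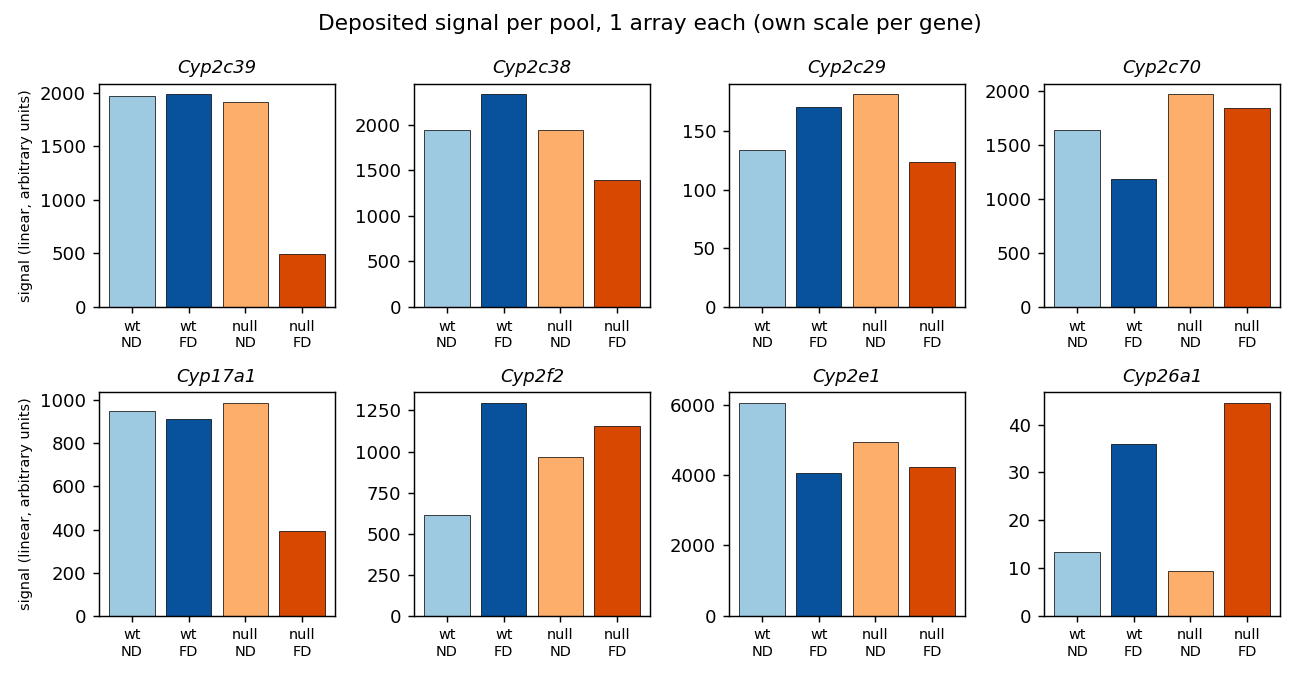
Deposited signal of 8 P450 genes (y axis, linear, each gene on its own scale from 0) in the 4 pools (x axis), with 1 bar per array and no error bar because each group has 1 array. The HSL-null FD bar is at 494.3 for Cyp2c39 and 393.0 for Cyp17a1, while Cyp26a1 is higher on both FD arrays.

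Cyp17a1 encodes the 17-hydroxylase and lyase of steroid synthesis, which in mouse liver is found mainly in females. Wild-type signals were 950.3 on ND and 911.5 on FD, and HSL-null signals 986.6 and 393.0. As for Cyp2c39, 3 pools lay close together and the HSL-null FD pool was lower, by 2.32-fold against wild type on FD and 2.51-fold against HSL-null on ND. The 2 ratios, -1.21 and -1.33, ranked 29th and 12th from the lowest of 4829. A second probe set of Cyp17a1, with suffix f, had signals of only 6.2, 12.1, 7.8 and 8.2 in the same order. Its log2 ratios were -0.56 for genotype on FD and 0.072 for diet in HSL-null liver, too close to the floor to check the first. The difference between the genotype ratio on FD and that on ND was -1.96 for Cyp2c39 and -1.27 for Cyp17a1. These 2 were the P450 genes at least 2-fold lower by this measure, against 1.39% of all genes, and 0 were higher, against 4.93%. Under median scaling Cyp2c29, Cyp2c38, Cyp2f2 and Cyp4b1 joined them. That setting also raised the number of all genes 2-fold lower by this measure, from 67 of 4829 to 211 of 4827.

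Cyp21a1, the adrenal steroid 21-hydroxylase, passed the filter with signals of 112.2 on ND and 137.9 on FD for wild type against 109.3 and 127.2 in HSL-null liver, and its genotype ratios were -0.038 and -0.12. Its probe set has the suffix s, for probes shared by several transcripts. Other adrenal genes were low on every array: Star, the cholesterol carrier of steroid synthesis, had 20.0 to 31.5, Hsd3b1 6.4 to 9.7, the corticotropin receptor gene Mc2r 1.3 to 3.7 and Cyp11a1, the side-chain cleavage enzyme, 2.5 to 9.1.

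The Cyp2a, Cyp2d and Cyp3a genes encode major drug and steroid hydroxylases, and the widest spans among them were 1.64-fold for Cyp2d9 and 1.58-fold for Cyp3a16. Cyp2a12, which hydroxylates testosterone and bile acids, had 1929 on ND and 2175 on FD for wild type against 2108 and 2201 in HSL-null liver, a span of 1.14-fold. Cyp2d26 had 2895 on ND and 2704 on FD for wild type against 2833 and 2755 in HSL-null liver. Cyp2d10 had 4232 and 4364 against 3934 and 3742 at its brightest probe set, suffix s, with genotype ratios of -0.11 and -0.22. Its other probe set had 1633 and 2217 against 1928 and 1856, with genotype ratios of 0.24 and -0.26 and a diet ratio of 0.44 in wild type. The pair differed in direction on ND, so no direction is given there. Cyp2d9, a testosterone hydroxylase typical of male liver, had low signals of 53.3 on ND and 69.8 on FD for wild type against 49.3 and 80.8 in HSL-null liver. It was 1.31-fold higher on FD in wild type and 1.64-fold higher in HSL-null liver, the larger diet ratio of the 2 being 0.71.

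Cyp3a11, the main drug-metabolising enzyme induced through the pregnane X receptor, had 2530 on ND and 2423 on FD for wild type against 2682 and 2871 in HSL-null liver. Its genotype ratios were 0.084 on ND and 0.24 on FD, both under the probe set SD of 0.298. Cyp3a13 had genotype ratios of 0.12 and -0.0086, and Cyp3a25 had 0.082 and -0.051. Cyp3a16, an isoform of fetal and female liver, had 145.7 on ND and 112.6 on FD for wild type against 172.6 and 109.3 in HSL-null liver. It was lower on FD in both genotypes, by 1.29-fold and 1.58-fold, at a probe set with suffix r, which marks probes chosen under relaxed rules.

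Genes of family 4, fatty acid and eicosanoid hydroxylases, were highest in wild type on FD at 3 of 4 members. The share was 25.4% of all genes, and a count over 4 genes is imprecise. Cyp4b1 had 152.0 on ND and 242.7 on FD for wild type against 168.8 and 165.5 in HSL-null liver. That is 1.60-fold higher on FD in wild type and 1.02-fold lower in HSL-null liver. The Cyp4b1 probe set has the suffix f, so signal from related transcripts cannot be told apart. Cyp4f13 had 139.0 and 198.0 against 147.0 and 132.9, with diet ratios of 0.51 and -0.15. Its dimmer probe set, suffix f, had 46.3 and 58.2 against 34.6 and 44.0. It gave diet ratios of 0.33 and 0.35, so the contrast between genotypes was not seen there. Cyp4v3 had 1210 and 1230 against 1138 and 1187, only 1.02-fold higher on FD in wild type. Under cyclic loess its highest value was in HSL-null liver on FD. Cyp4a12b, of a group more abundant in males, had 81.8 and 86.5 against 86.3 and 92.8. Cyp1a2, the perivenous enzyme that breaks down caffeine and is induced through the aryl hydrocarbon receptor, had 1050 on ND and 1424 on FD for wild type against 1088 and 1138 in HSL-null liver. It too was highest in wild type on FD, by 1.36-fold over ND.

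Of the 22 genes, 10 had their highest value in wild type on FD (45.5%), against 25.4% of all genes, and lowest values were most often on the wild-type ND array, at 8 genes (36.4%) against 24.6%, and the HSL-null FD array, at 7 (31.8%) against 19.9%. For the highest value in wild type on FD, quantile normalization gave 10 of 21 (47.6%) against 30.7%, and median scaling 12 of 22 (54.5%) against 36.6%. For the lowest value in HSL-null liver on FD, median scaling gave 10 of 22 (45.5%) against 32.5%. The mean of probe sets gave 5 of 22 (22.7%) against 19.3%, and probe sets without suffix 4 of 18 (22.2%) against 20.0%. The share for that array thus depended on the processing. Many of these differences are small, since 13 of the 22 genes spanned less than 2 probe set SDs. The same held for 3517 of all 4829 genes.

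In wild type, 1 of 22 genes was 2-fold or more higher on FD than on ND and 0 were lower, against 0.787% and 2.36% of all genes. That gene was Cyp2f2, a periportal enzyme that activates naphthalene. Its signals were 614.8 on ND and 1295 on FD for wild type against 965.0 and 1154 in HSL-null liver. The wild-type ND pool was the low one, so that FD was 2.11-fold higher in wild type and 1.20-fold higher in HSL-null liver. HSL-null liver was 1.57-fold higher on ND and 1.12-fold lower on FD. The other 5 periportal genes measured, Pck1, Hal, Cps1, Ass1 and Arg1, had diet ratios from -0.60 to -0.23 in wild type, opposite to Cyp2f2. The summed signal over 5 genes of the exocrine pancreas was 758.3 on the wild-type ND array and 243.4 to 306.0 on the other arrays. Prss2, Ctrb1, Clps and Reg1 were highest on the wild-type ND array. Cela1 was not, with 158.5 there and 184.1 in HSL-null liver on FD. The part of these pancreas genes in the Cyp2f2 ratio was not tested. In HSL-null liver, 2 of 22 genes were lower on FD, Cyp2c39 and Cyp17a1, and 0 were higher, against 0.621% and 0.828% of all genes.

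**Figure D4:**
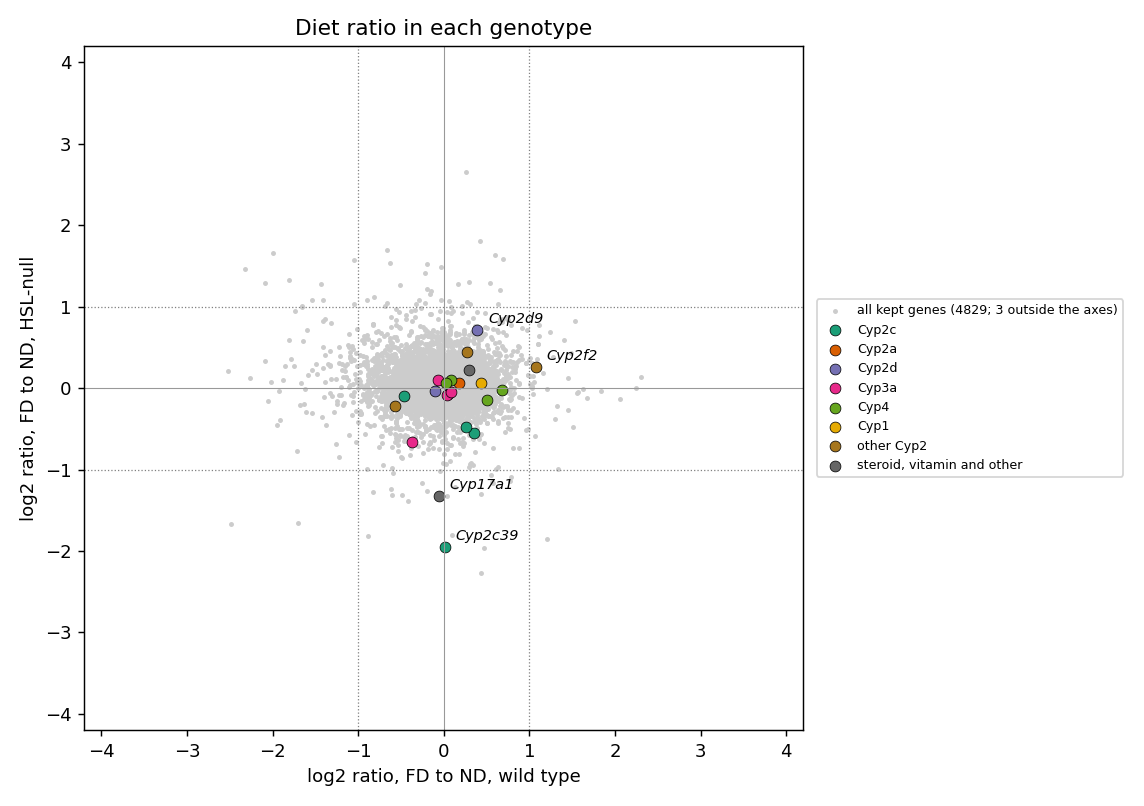
Log2 ratio of FD to ND in wild type (x axis) and in HSL-null liver (y axis), with the 4829 kept genes in grey, P450 genes coloured by subfamily and dotted lines at 2-fold. Cyp2f2 lies beyond the line in wild type (1.08), and Cyp2c39 (-1.95) and Cyp17a1 (-1.33) lie below it in HSL-null liver.

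Cyp2e1, the perivenous enzyme that oxidises ethanol and fatty acids, had 6044 on ND and 4067 on FD for wild type against 4939 and 4226 in HSL-null liver. It was lower on FD in both genotypes, by 1.49-fold and 1.17-fold. Its wild-type value on ND was the highest, as were those of 4 of 6 hepatocyte genes, Alb (6913, against 4680 to 5382 elsewhere), Ttr, Apoa1 and Serpina1c. The other 2, Tat and Fgb, were highest in HSL-null liver on ND. Quantile normalization reduced the diet ratio of Cyp2e1 in wild type from -0.57 to -0.12. Cyp2j5, an arachidonic acid epoxygenase, lay just inside the filter with 21.2 on ND and 25.6 on FD for wild type against 26.0 and 35.4 in HSL-null liver. It was higher on FD in both genotypes and higher in HSL-null liver on both diets, with log2 ratios of 0.27 to 0.47.

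Cyp26a1, the retinoic acid hydroxylase whose promoter is shown above, lay just under the filter with a mean signal of 25.8. Its signals were 13.4 in wild type and 9.3 in HSL-null liver on ND, and 35.9 and 44.5 on FD. All of these signals were above the floor. Those on ND lie in the range of 16.2 or less, where differences are not read for the other genes under the filter. The folds that follow rest on these ND signals, so their size is uncertain. FD was 2.68-fold higher in wild type and 4.78-fold higher in HSL-null liver. With the filter dropped, 1.75% of all genes were 2-fold or more higher on FD in wild type and 2.27% in HSL-null liver. The genotype ratios were -0.53 on ND and 0.31 on FD.

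The other 8 genes under the filter had signals of 16.2 or less on every array. They were Cyp1a1 and Cyp1b1, targets of the aryl hydrocarbon receptor, Cyp2b19, Cyp2j6, Cyp2s1, Cyp11a1, Cyp24a1 and Cyp27b1. Cyp24a1 and Cyp27b1 break down and make active vitamin D. Cyp2b19, Cyp2j6 and Cyp24a1 were at or under the floor on all 4 arrays and gave no ratio. Cyp27b1 had 8.1 on ND and 16.2 on FD for wild type against 5.0 and 4.0 in HSL-null liver, where both values lie under the floor. Cyp1b1 had 6.7 on ND and 4.0 on FD for wild type against 6.3 and 13.0 in HSL-null liver at its brighter probe set, and its other probe set was under the floor throughout. These signals are too close to the floor to read differences.

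Genes that serve or control P450 enzymes were taken from 2 lists. Of 8 genes for electron supply and heme, 6 passed the filter and 0 were 2-fold different in any of the 4 comparisons. Of all genes, 1.57% were 2-fold different between genotypes on ND, 2.82% between genotypes on FD, 3.15% for diet in wild type and 1.45% for diet in HSL-null liver, so 0 of 6 says nothing particular about these genes. Alas1, the first enzyme of heme synthesis, had 1727 on ND and 1859 on FD for wild type against 1174 and 1500 in HSL-null liver, with genotype ratios of -0.56 and -0.31. Cyb5r3, cytochrome b5 reductase, had 0.36 and -0.39. The reductase gene Por has no probe set annotated to it alone in the table used.

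Of 17 regulators, 16 had a probe set and 14 passed the filter. Nr0b2 was the 1 of these 14 that was 2-fold different, higher on the HSL-null FD array, against 1.86% of all genes higher for genotype on FD and 0.828% for diet in HSL-null liver. Nr0b2 encodes SHP, a nuclear receptor without a DNA-binding domain that represses other receptors. Its signals were 99.5 on ND and 97.1 on FD for wild type against 104.0 and 220.4 in HSL-null liver, so that it was high on the array where Cyp2c39 and Cyp17a1 were low. It was 1.18 higher on the log2 scale than wild type on FD and 1.08 higher than HSL-null on ND. Whether it bears on the P450 genes was not tested. Ahr, the aryl hydrocarbon receptor, had 84.1 and 102.2 against 102.8 and 181.1, with genotype ratios of 0.29 and 0.83. Nr1i2, the pregnane X receptor, had 55.2 and 44.3 against 68.2 and 67.9, with ratios of 0.31 and 0.62. Nr1i3, the constitutive androstane receptor, had 535.3 and 631.8 against 435.2 and 591.4, with ratios of -0.30 and -0.095. The median regulator ratio was -0.16 on ND and 0.20 on FD, against -0.018 and 0.067 for all genes. The other 2 regulators lay under the filter, with ratios past 2-fold at low signal. Esr1, the estrogen receptor alpha, had 27.6 and 10.2 against 10.9 and 21.2, and genotype ratios of -1.34 on ND and 1.06 on FD. Cux2, a factor typical of female liver, had a genotype ratio of -1.03 on FD, with 25.3 on ND and 24.7 on FD for wild type against 15.1 and 12.1 in HSL-null liver.

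The arrays had similar overall signal, with medians of 25.2 to 28.3, and 24.1 to 26.0% of probe sets were at or under the floor. Lipe, the gene knocked out, had 28.0 on ND and 34.0 on FD for wild type against 11.9 and 15.9 in HSL-null liver. Whether its probes lie inside the deleted part is not known here, so these values do not check the knockout. Hepatocyte genes had high signals on every array, Alb 4680 to 6913 and Ttr 1666 to 1939. The 6 perivenous genes other than P450s had a median ratio of 0.21 for genotype on FD, with 5 above 0 and 1 below. For diet in HSL-null liver it was 0.11, with 4 above 0 and 2 below. The medians of all genes were 0.067 and 0.041. Cyp2c39 and Cyp17a1 were lower in these comparisons, and whether the perivenous genes bear on them was not tested. Kidney genes summed to 25.2 to 37.0 over 5 genes, and 8 macrophage genes to 887.8 to 1335. In these pools, fewer cells of a type and less RNA per cell cannot be told apart. Each genotype had its own lot of the solution that the run settings call SAPE, and the 2 cannot be told apart, while both FD and ND arrays are in each lot.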

How the data were processed

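Liver RNA of 4 pools was measured on 4 Affymetrix MG_U74Av2 arrays, 1 per group. The deposited table gives each probe set an intensity per array, not log transformed. MAS5, which summarises Affymetrix probes, is named in the submitters' processing notes. The 2% trimmed mean was 100.1 on each array, so the deposited intensities had been scaled to a common mean. Other deposited files hold run settings only, and their contents are of the kind "other" per the file headers.

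Of 12488 probe sets, 66 controls were left out. Genes came from the platform annotation: 10833 probe sets had 1 gene, 396 several and 1193 none. All 37 P450 probe sets matched a RefSeq gene identifier of GRCm38.p6, and 0 symbols differed. Signals under 6.1 (the 25th percentile of all values) were raised to it, probe sets with a mean under 26.9 were dropped, and each gene was represented by its brightest probe set. The 687 genes with a second kept probe set gave the probe set SD, which is the SD of the difference between their log2 ratios divided by the square root of 2. The calling steps were run on simulated arrays with large known changes and no error shared on an array. That run checks the steps and does not measure how reliable the calls here are. With 1 array per group there was no test, and precision is limited by having 4 arrays. Promoter windows were searched for TATAAA or AGGTCA or AGTTCA, for 2 copies of AGTTCA 5 bases apart and for TTCNNNGAA.

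Every kept P450 gene was named, with signals for those 2-fold different, those brightest in a subfamily and Cyp1a2, Cyp2c39, Cyp2e1, Cyp3a11 and Cyp17a1. Signals of other genes were added after their values were seen. The members, gene lists and settings were chosen with earlier results of these data known. Alternatives were other normalizations (limma 3.58.1 in R 4.3.3), floors, filters, probe set rules and a 1.5-fold threshold.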

Additional observations from a re-analysis of the deposited data

How the results depend on the processing

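The counts of P450 genes 2-fold different were 0 for genotype on ND, 2 for genotype on FD, 1 for diet in wild type, 2 for diet in HSL-null liver and 2 for the difference between the genotype ratios. Cyclic loess, quantile normalization, a floor at the median of 26.7, a pseudocount of 16, a filter at the 75th percentile, the mean of probe sets and probe sets without suffix gave the same 5 counts. Median scaling gave 6 for the difference between the genotype ratios, against 6.73% of all genes, and the same counts otherwise. With no filter, the last 4 counts were 4, 3, 4 and 4, as 31 genes entered, some near the floor. The shares of all genes were then 5.08%, 5.82%, 3.51% and 10.7%. At 1.5-fold the 5 counts were 1, 4, 2, 4 and 7 of 22, against 6.73%, 12.9%, 14.0%, 6.44% and 22.6% of all genes. Of 950 ratios of single genes under these alternatives, 945 moved by less than the probe set SD and 0 called ratios changed sign. The 5 that moved were of Cyp2d10 and Cyp2e1. Of 360 subfamily medians, 11 moved by more. Probe sets near the floor of 6.1 limit what can be read for the genes under the filter. No paired analysis was possible because each group has 1 array.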
